A study of Mus musculus with 18 samples.

Results

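Cma1, Cpne7, Dennd5a, Mcam, Cmah and Wdr95 are 6 of the 54309 genes in the lymphocyte count table, and they were followed across the natural killer (NK) cells and type 1 innate lymphoid cells (ILC1) of mouse liver. They were selected on the measured counts themselves, because earlier inspection of these libraries showed them falling in CD49a+ NK cells or missing from ILC1. All 6 passed the filter on low counts, which left 13594 genes. The values in those populations are therefore given as a description, and tests are given only for comparisons that did not enter the choice. The choice groups genes with unlike behavior: Cma1, Mcam and Cmah were low in CD49a+ NK cells and lower still or near 0 in ILC1, Wdr95 was at 0 in ILC1 but not low in CD49a+ NK cells, and Cpne7 and Dennd5a were low in CD49a+ NK cells but not in ILC1. No single phrase about loss fits the 6 genes, so they are named here one at a time.

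The libraries came from livers of female C57BL6/J mice, with no engineered allele named in the labels, that were 8 to 10 weeks old when MC38 colon adenocarcinoma cells were injected into the spleen, and that were analyzed at day 20. NKp46+ lymphocytes were sorted from pools of 6 to 8 tissue samples into 4 populations of 3 libraries each. MFL NK cells (CD49a- CD49b+) and MFL ILC1 (CD49a+ CD49b-) came from metastasis-free liver (MFL), and LM CD49a- NK cells (CD49b+) and LM CD49a+ NK cells (CD49b+) came from liver metastases (LM). A second experiment sorted F4/80low and F4/80high metastasis-associated macrophages (MAMs) from MC38 metastases, again with 3 libraries each. LM tissue was digested with Liberase whereas MFL was mashed and filtered, so that site and dissociation cannot be told apart in any comparison of LM with MFL cells. The titles of the LM CD49a+ libraries call them ILC1 while their cell type label calls them CD49a+ NK cells, and the label was followed. Nothing in the labels ties the libraries to separate animals beyond the pools. The paper describes the pooled MFL and LM samples as coming from 3 independent sortings. Which libraries share a sorting is not stated, so p-values measure the spread between these libraries.

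Liver NK cells circulate, carry CD49b (Itga2) and depend on the transcription factor Eomes, whereas liver ILC1 are resident, carry CD49a (Itga1) and lack Eomes. Maturing NK cells raise factors such as Zeb2 together with proteases, adhesion molecules and homing receptors. Among the 6 genes, Cma1 encodes chymase, a secreted serine protease known from mast cells and placed in a gene cluster with the granzymes. Mcam (CD146) is an immunoglobulin-family adhesion molecule best known from endothelium. Cmah is the hydroxylase that turns the sialic acid N-acetylneuraminic acid, as its CMP sugar, into N-glycolylneuraminic acid. Cpne7 is a copine, a calcium-dependent phospholipid-binding protein, Dennd5a is a DENN-domain protein of Rab-directed membrane traffic, and Wdr95 is a WD-repeat protein of little-known function.

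On the GRCm39 build, all 6 are protein-coding genes on different chromosomes. Cma1 lies at chr14:56178908-56182132 on the - strand with 5 exons in its canonical transcript. Mcam lies at chr9:44045504-44054025 on the + strand with 16 exons, and Cmah at chr13:24511222-24661360 on the + strand with 17 exons. Wdr95 lies at chr5:149452144-149535378 on the + strand with 23 exons, Cpne7 at chr8:123843492-123861927 on the + strand with 15 exons, and Dennd5a at chr7:109492987-109559711 on the - strand with 23 exons. Annotated transcripts on the other strand overlap Cpne7, Mcam, Cmah and Wdr95. On the same strand, Mir7080 overlaps Cpne7 and Gm59729 overlaps Cmah. The library kit marks strand, but the strand setting of the counting is not given in the sources used here. The members' transcripts were read from GENCODE vM39, a later release than the one the paper names. Of their stretches of 31 bases, the length the counting index used, 9.17% of those of Cma1 also occur in another gene, in each case the pseudogene Gm48934. The shares were 11.2% for Cmah, 1.29% for Dennd5a, 0.961% for Cpne7, 0.181% for Mcam and 0 for Wdr95, so reads of Cmah and Cma1 were the most open to being split with other genes.

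The 250 bases before the canonical start are shown for the genes whose counts did not exceed 3 in any ILC1 library, read from the genome on the gene's own strand, 5′ to 3′. Capitals mark matches to the motifs searched on both strands, which were a T-box core GGTGTGA, a RUNX core TGTGGT, an ETS core GGAAGT, a ZEB-type E-box CAGGTG, an AP-1 site TGANTCA and an AHR core TNGCGTG.
Cma1 promoter, chr14:56182133-56182382, - strand: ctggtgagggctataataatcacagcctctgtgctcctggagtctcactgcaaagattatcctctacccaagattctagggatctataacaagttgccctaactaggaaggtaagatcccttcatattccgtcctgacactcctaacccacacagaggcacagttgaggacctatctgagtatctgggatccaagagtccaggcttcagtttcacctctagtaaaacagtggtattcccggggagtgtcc
Cmah promoter, chr13:24559816-24560065, + strand: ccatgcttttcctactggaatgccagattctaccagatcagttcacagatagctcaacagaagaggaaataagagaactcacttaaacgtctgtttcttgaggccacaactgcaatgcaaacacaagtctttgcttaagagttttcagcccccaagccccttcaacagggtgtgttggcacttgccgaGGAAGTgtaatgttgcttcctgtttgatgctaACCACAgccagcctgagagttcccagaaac
Wdr95 promoter, chr5:149452866-149453115, + strand: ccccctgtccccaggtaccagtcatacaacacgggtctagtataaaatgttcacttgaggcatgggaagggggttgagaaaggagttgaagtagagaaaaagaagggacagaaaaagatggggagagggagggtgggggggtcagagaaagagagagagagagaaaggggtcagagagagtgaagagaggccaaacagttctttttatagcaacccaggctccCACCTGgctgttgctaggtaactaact

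The Cma1 window held no match to any of these motifs. Cmah had an ETS core from -62 to -57 and a reversed RUNX core from -30 to -25, counted back from the start, and Wdr95 had a reversed E-box from -27 to -22. Outside these 3 genes, Cpne7 had an E-box from -89 to -84, Dennd5a a RUNX core from -63 to -58 and an AHR core from -117 to -111, and Mcam none. Over 21770 protein-coding promoters of the same length, 3.23% held the T-box core, 13% the RUNX core, 19% the ETS core, 17.7% the E-box, 6.17% the AP-1 site and 4.8% the AHR core. GC content was 48% for Cma1, 46.4% for Cmah and 50% for Wdr95 against a median of 53.2% over all promoters. These windows held 2, 2 and 1 CpG, against a median of 8, whereas Dennd5a held 16. The matches are letters in a window and were not tested for binding. For Cmah, Cpne7 and Wdr95 the annotated gene begins upstream of the canonical start, for Cmah at 24511222 beside 24560066. Which start these cells use was not examined.

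Total counts ran from 8795721 to 14386834 per lymphocyte library and from 21278959 to 32267015 per MAM library, and no libraries held identical counts. Replicates were least alike in LM CD49a- NK cells, where each library correlated with the mean of the other 2 at r = 0.813 to 0.866 on log2 CPM (counts relative to the TMM-scaled library size). LM CD49a+ NK cells were close to this, at 0.845 to 0.857. The range was 0.878 to 0.939 in ILC1 and 0.913 to 0.959 in MFL NK cells. The sorted cells carried their defining genes: mean Ncr1 (NKp46) was 983 CPM in MFL NK cells, 671 in LM CD49a- NK cells, 581 in LM CD49a+ NK cells and 944 in ILC1. Itga1 was 11.5, 11.4, 134 and 662 CPM in that order, Itga2 346, 292, 128 and 36.9 CPM, and Eomes 667, 944, 686 and 20.3 CPM. 

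Cma1 was lower at each step from MFL NK cells to ILC1. It was 188, 126 and 94.9 CPM in the MFL NK libraries, 71.2, 80.5 and 118 CPM in LM CD49a- NK cells, 9.76, 17.5 and 16.4 CPM in LM CD49a+ NK cells and 0, 0 and 0.0946 CPM in ILC1. The MFL and LM CD49a- NK libraries overlapped, the LM CD49a+ libraries all lay below them, and ILC1 held a single count in 1 of 3 libraries. The mean was 136 ± 47.5 CPM in MFL NK cells and, within LM, 89.9 ± 24.8 without CD49a and 14.6 ± 4.19 with CD49a (SD, n = 3). LM CD49a+ NK cells were thus 6.18-fold lower than LM CD49a- NK cells and 9.37-fold lower than MFL NK cells. Against 3 counts per library, and on means, ILC1 was at least 540.3-fold lower than MFL NK cells. In bulk libraries of sorted pools, fewer cells with the transcript and less transcript per cell cannot be told apart.

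Mcam had the steepest drop between the NK populations. It stood at 89.6, 63.5 and 58.3 CPM in the MFL NK libraries, 20, 21.2 and 55.5 CPM in LM CD49a- NK cells, 0, 1.33 and 1.69 CPM in LM CD49a+ NK cells and 0.0847, 1.75 and 0.757 CPM in ILC1. LM CD49a+ NK cells and ILC1 overlapped near the floor, at 0 to 17 and 1 to 24 counts, and every MFL and LM CD49a- NK library lay above them. The mean in LM CD49a+ NK cells (1.01 ± 0.89 CPM) was 32-fold below LM CD49a- NK cells (32.2 ± 20.1) and 70-fold below MFL NK cells (70.5 ± 16.8). The log2 fold change between the LM populations was -4.98, and it was -4.34 without LM CD49a- replicate 3 and -6.17 by limma-voom. ILC1 (0.865 ± 0.84 CPM) was 81.4-fold below MFL NK cells, a log2 fold change of -6.31, which was -7.37 without ILC1 replicate 2 and -5.79 without ILC1 replicate 1. Unlike the other members, Mcam did not overlap between MFL NK and LM CD49a- NK cells, although LM CD49a- replicate 3 came within 3 CPM of the lowest MFL library.

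Cmah was 81.6, 107 and 129 CPM in the MFL NK libraries, 46.5, 101 and 66.4 CPM in LM CD49a- NK cells, and 6.77, 45.2 and 44 CPM in LM CD49a+ NK cells. No count was assigned to it in any ILC1 library. The LM CD49a+ libraries lay below both other NK populations, by a narrow margin at 45.2 against 46.5 CPM. The mean of LM CD49a+ NK cells (32 ± 21.9 CPM) was 2.23-fold below LM CD49a- NK cells (71.3 ± 27.6) and 3.31-fold below MFL NK cells (106 ± 23.6). Replicate 1 carried much of the first difference, whose log2 fold change was -1.16 (SE 0.56) with it and -0.68 without it. On means, ILC1 was at least 419-fold below MFL NK cells.

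**Figure D1:**
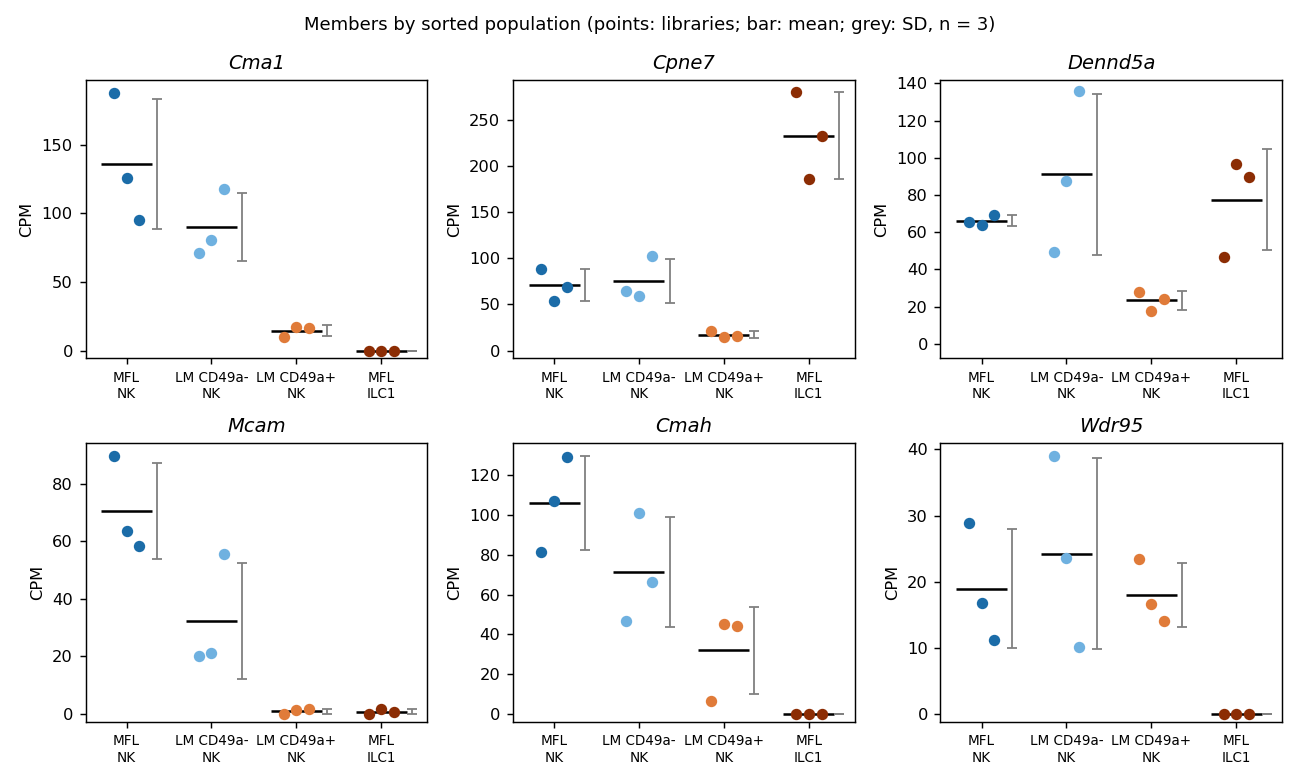
CPM of the 6 genes (vertical axis from 0, one panel per gene) in MFL NK, LM CD49a- NK, LM CD49a+ NK and MFL ILC1 cells, with a point for each library, a black bar for the mean and a grey bar for the SD (n = 3). Cma1, Mcam and Cmah step down from left to right, Wdr95 is level across NK cells and 0 in ILC1, and Cpne7 is highest in ILC1 at 186 to 280.3 CPM.

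Wdr95 separated NK cells from ILC1 and not the NK populations from each other. It was 28.9, 16.8 and 11.2 CPM in the MFL NK libraries, 39, 23.6 and 10.1 CPM in LM CD49a- NK cells, 23.4, 16.6 and 14.1 CPM in LM CD49a+ NK cells, and at 0 counts in all 3 ILC1 libraries. The NK populations overlapped throughout. The means were 19 ± 9.03, 24.2 ± 14.5 and 18 ± 4.81 CPM, and ILC1 was at least 75.1-fold below MFL NK cells. A count of 3 corresponds to 0.219 to 0.284 CPM in the ILC1 libraries, so lower levels of Cma1, Cmah or Wdr95 were not detectable there.

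Cpne7 went the other way in ILC1. It was 89, 54.3 and 68.9 CPM in the MFL NK libraries, 65.1, 58.9 and 103 CPM in LM CD49a- NK cells, 21.3, 14.8 and 16.2 CPM in LM CD49a+ NK cells and 280.3, 186 and 233 CPM in ILC1. Each ILC1 library lay above every NK library, and each LM CD49a+ library lay below every other library. LM CD49a+ NK cells (17.4 ± 3.42 CPM) were 4.35-fold below LM CD49a- NK cells (75.7 ± 24) and 4.06-fold below MFL NK cells (70.7 ± 17.4). ILC1 (233 ± 47.2 CPM) held 3.3 times the MFL NK level.

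Dennd5a resembled Cpne7 in LM CD49a+ NK cells only. It was 65.3, 63.8 and 69.4 CPM in the MFL NK libraries, 49.4, 87.6 and 136 CPM in LM CD49a- NK cells, 27.7, 17.9 and 24.3 CPM in LM CD49a+ NK cells and 46.4, 96.5 and 89.4 CPM in ILC1. The LM CD49a+ libraries were the lowest 3 of the 12, and the other populations overlapped. LM CD49a+ NK cells (23.3 ± 5 CPM) were 3.91-fold below LM CD49a- NK cells (91.1 ± 43.5) and 2.84-fold below MFL NK cells (66.2 ± 2.89), while ILC1 (77.4 ± 27.1) held 1.17 times the MFL NK level.

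**Figure D2:**
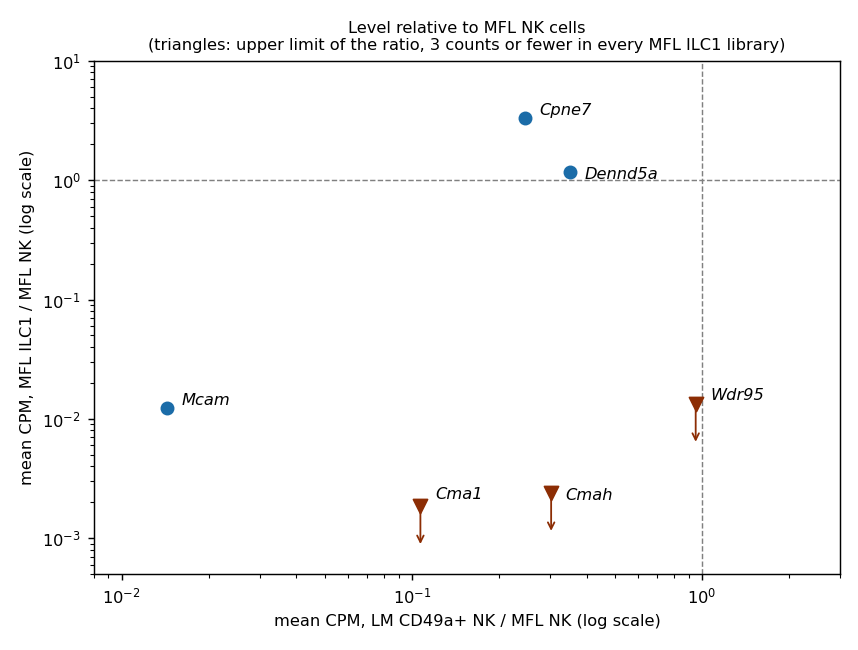
Mean CPM relative to MFL NK cells, in LM CD49a+ NK cells (horizontal, log scale) and in MFL ILC1 (vertical, log scale), for the 6 genes; triangles with arrows are upper limits, computed from 3 counts per ILC1 library. Mcam is low on both axes, Cma1 and Cmah are at intermediate ratios in LM CD49a+ NK cells with limits under 0.01 in ILC1, Wdr95 is near 1 on the horizontal axis, and Cpne7 lies above 1 on the vertical axis at 3.3.

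With LM CD49a- NK cells as the reference for LM CD49a+ NK cells, the libraries of 5 of 6 members lay lower without overlap, as did 4.1% of all genes tested. Against MFL NK cells this was also 5 of 6, beside 13% of all genes. In ILC1 against MFL NK cells, 4 members lay lower without overlap beside 13.1% of all genes, and 1 lay higher beside 12.2%. These counts follow from the way the genes were chosen. The comparisons also share libraries, since MFL NK cells and LM CD49a+ NK cells each enter more than 1 of them.

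Per kilobase of canonical transcript, the levels in MFL NK cells were 125 CPM for Cma1, 24.6 for Cpne7, 21.1 for Mcam, 13.1 for Dennd5a, 10.7 for Cmah and 7.09 for Wdr95. Cma1 was therefore the most abundant member per length in NK cells. In ILC1 the per-kilobase level of Cpne7 was 80.9 CPM and that of Dennd5a 15.3 CPM.

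The comparison of LM CD49a- NK cells with MFL NK cells did not enter the choice of genes, although it uses libraries that did. Here no member passed an adjusted p under 0.1 by the quasi-likelihood test of edgeR after Benjamini-Hochberg adjustment, and 0.0736% of all genes did, 10 in number. At an unadjusted p under 0.05 the count of members was also 0, and DESeq2 and limma-voom called 0. Mcam had the largest difference, with a log2 fold change of -1.13 (SE 0.88, adjusted p = 0.927 by edgeR), and it was the only member lower without overlap, as were 11.9% of all genes. Without LM CD49a- replicate 3 its log2 fold change was -1.78, still not past the threshold.

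Cma1 had a log2 fold change of -0.60 (SE 0.39, adjusted p = 0.869 by edgeR) and Cmah of -0.57 (SE 0.55, adjusted p = 0.963 by edgeR) between these NK populations. Dennd5a had 0.46 (SE 0.38), Wdr95 0.35 (SE 0.80) and Cpne7 0.10 (SE 0.29), with adjusted p of 0.939, 0.996 and 0.996 by edgeR. LM CD49a- replicate 3 was the highest of its group for Cma1, Cpne7, Dennd5a and Mcam and the lowest for Wdr95. The direction of Cpne7 turned to -0.20 without that library. With standard errors of 0.29 to 0.88 on the log2 scale, differences of the size listed here were not resolved.

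Of 14 other protease genes in the granzyme and chymase cluster around Cma1 on chromosome 14, 2 passed the filter, Gzmc and Gzmb, whose lower ends lie 289.9 and 317.4 kb from that of Cma1. Gzmc, a granzyme, was 1.04 ± 0.0185 CPM in MFL NK cells, 4.92 ± 4.57 in LM CD49a- NK cells, 73.4 ± 58 in LM CD49a+ NK cells and 158 ± 10.7 in ILC1. It rose in ILC1 (log2 fold change 7.23, SE 0.90, adjusted p = 8.58e-05) and in LM CD49a+ NK cells against MFL NK cells (6.13, SE 0.86, adjusted p = 0.00183) by edgeR. Against LM CD49a- NK cells it also passed (3.90, SE 0.76, adjusted p = 0.0853 by edgeR), but 8 of 18 other settings did not call it, among them those without LM CD49a+ replicate 1 or 2. Gzmb, the main granzyme of cytotoxic lymphocytes, was 1344 ± 582, 1547 ± 324, 1086 ± 158 and 2490 ± 223 CPM in the same order. EdgeR did not call it in these comparisons, whereas DESeq2 and limma-voom called it higher in ILC1 than in MFL NK cells. Cma2, Mcpt1, Mcpt2, Mcpt4, Mcpt9, Ctsg, Gzme, Gzmg and Gzmn were at 0 counts in all 12 libraries. The order of Gzmc over the populations was thus the reverse of that of Cma1.

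**Figure D3:**
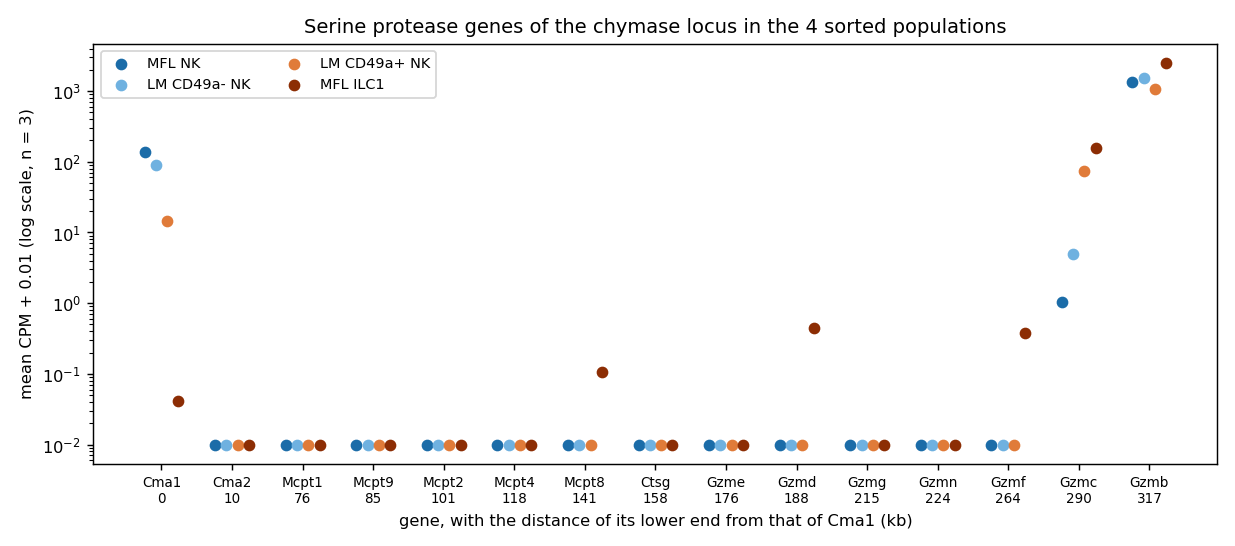
Mean CPM plus 0.01 (log scale, n = 3) in the 4 sorted populations for the serine protease genes of the chymase cluster, ordered by distance from Cma1 in kb. Cma1 goes down and Gzmc up from MFL NK cells to ILC1, Gzmb is above 1000 CPM in all 4, and the genes between them are at or near 0.

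Since Cma1 is best known from mast cells, their other markers were examined in the same libraries. Of 9 mast cell markers, Fcer1a, Cpa3, Tpsab1, Tpsb2 and Mcpt4 had 3 counts or fewer in all 12 libraries, and 4 of these 5 were at 0. The summed level of the list ranged from 23.1 to 96 CPM and lay mostly in Kit. Mean Kit was 38.4 CPM in MFL NK cells, 50.9 in LM CD49a- NK cells, 78.4 in LM CD49a+ NK cells and 55.7 in ILC1. The part of mast cells in the Cma1 values was not tested. Of 7 basophil markers, Mcpt8, Prss34 and Fcer1a had 3 counts or fewer throughout, and the sum ranged from 6.56 to 41.8 CPM. Il3ra was present in all 4 populations. Cd200r3 had 23 to 101 counts in the ILC1 libraries and 0 in the NK libraries, and Ms4a2 reached 47 counts in LM CD49a+ NK cells. For Mcam, of 9 endothelial markers Tie1 was at 0 in all 12 libraries and the sum ranged from 79.1 to 283 CPM, mostly Pecam1. Pecam1 was 251 ± 30.2 CPM in LM CD49a+ NK cells, where Mcam was near 0, beside 105 ± 29.8 CPM in the MFL NK libraries. Other endothelial markers differed from it. Cdh5, Stab2 and Lyve1 exceeded 3 counts in some MFL NK library, where Mcam was highest, but in no LM NK library. Egfl7 exceeded 3 counts in LM CD49a+ NK cells only. Cdh5, Kdr, Tek, Stab2 and Clec4g did so in ILC1. The part of endothelial cells in the Mcam values was not tested.

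The summed T cell markers were highest in the ILC1 libraries, mostly through Cd3g. Cd3g was 471 ± 226 CPM in ILC1 and 6.2 ± 2.8 CPM in MFL NK cells. Of 5 T cell markers tested there, edgeR called Cd3g alone, where 3.06% of all genes were called. DESeq2 called 1 and limma-voom 3. The summed level of 8 markers was 249 to 680.3 CPM in ILC1, where all 8 exceeded 3 counts in some library, against 4.97 to 14.6 CPM in MFL NK cells, where Cd4, Cd8a, Cd8b1 and Cd5 did not. In LM CD49a- NK cells the sum was 11.8 to 17.7 CPM and in LM CD49a+ NK cells 5.17 to 35.7 CPM, with 5 of 8 markers at 3 counts or fewer in each. Their part in the ILC1 values was not tested. Other cell types gave summed CPM, from the lowest to the highest library, of 33.8 to 218 in MFL NK cells and 108 to 135 in ILC1 for 7 hepatocyte markers, and at most 3.87 for 5 B cell markers. For 8 macrophage markers the highest library of ILC1 reached 114 CPM. Of 6 epithelial markers, Krt8, Krt19 and Krt20 had 3 counts or fewer in each population, while the sum reached 51.4 CPM in LM CD49a+ NK cells and 95 CPM in ILC1, mostly Cdh1, and its part was not tested.

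Of 29 other genes of sialic acid synthesis and transfer, 18 passed the filter, and in ILC1 against MFL NK cells 1 rose and 0 fell, where 3.06% of all genes were called; 3 had an unadjusted p under 0.05, and DESeq2 called 1 and limma-voom 7. The gene that rose was St8sia4, a polysialyltransferase, at 391 ± 105 CPM against 161 ± 18.8 (log2 fold change 1.28, adjusted p = 0.00787 by edgeR). The enzymes that make the substrate of Cmah were present in ILC1, with Gne at 56.5 ± 8.57, Nans at 62.2 ± 21 and Cmas at 55.2 ± 13.6 CPM, beside 35.9 ± 4.38, 56.8 ± 7.87 and 56 ± 2.69 CPM in MFL NK cells. The median log2 fold change of the list was 0.44 there and 0.01 over all genes. In LM CD49a+ against LM CD49a- NK cells, where 0.14% of all genes were called, edgeR called 0 of the 18 (4 at an unadjusted p under 0.05, 3 by DESeq2, 0 by limma-voom), with a median log2 fold change of -0.72 beside 0.01 over all genes. Against MFL NK cells, where 0.647% of all genes were called, it called 0 (2 at an unadjusted p under 0.05, 0 by DESeq2, 1 by limma-voom), with a median of -0.58 beside -0.04 over all genes. St3gal4, a sialyltransferase, was 72.5 ± 19.3, 90.9 ± 27.6, 35.8 ± 5.42 and 31.4 ± 13.8 CPM from MFL NK cells to ILC1 and was not called by edgeR, whereas limma-voom called it lower in ILC1 than in MFL NK cells and DESeq2 lower in LM CD49a+ than in LM CD49a- NK cells. The list of sialic acid receptors held 10 genes, counting Selplg, which encodes a selectin ligand. Of these, 4 passed the filter in the lymphocytes and edgeR called 0 in each lymphocyte comparison. There were 1 or 2 at an unadjusted p under 0.05 and at most 2 called by DESeq2 or limma-voom. The median log2 fold change of these 4 was -3.20 in LM CD49a+ against LM CD49a- NK cells and -4.49 against MFL NK cells. The medians rest on few genes, and Cd22 and Siglec1 were rare, with means of at most 3.64 and 4.86 CPM. Selplg was abundant, at 823 ± 97.1, 1028 ± 223, 942 ± 28.2 and 587 ± 65.2 CPM from MFL NK cells to ILC1. Mag was 15.4 ± 3.16, 10.6 ± 10.1, 0.456 ± 0.639 and 0.36 ± 0.313 CPM in the same order, and DESeq2 called it lower in ILC1 and in LM CD49a+ NK cells.

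Of 8 other copines, 3 were tested, and edgeR called 0 in any lymphocyte comparison, with 1 at an unadjusted p under 0.05 in ILC1, 0 by DESeq2 and 1 by limma-voom in ILC1. Cpne1 was 119.6 ± 32.4, 59.3 ± 2.35, 86 ± 32.8 and 52 ± 38.1 CPM, and Cpne3 79.3 ± 4.39, 82.2 ± 22, 68.6 ± 40.4 and 58.6 ± 12.4 CPM, from MFL NK cells to ILC1. Cpne4 and Cpne6 were at 0 throughout. Neither Cpne1 nor Cpne3 had its highest mean in ILC1. Cpne2 did, at 5.94 ± 5.43 CPM beside 2.11 ± 1.83, 2.15 ± 2.71 and 2.38 ± 3.16 in the NK populations, a difference within the spread of the libraries.

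Of 20 other DENN-domain genes, 18 were tested, and Dennd2b alone was called by edgeR in any lymphocyte comparison; in ILC1 DESeq2 called 1 and limma-voom 5. In each of the other lymphocyte comparisons DESeq2 called 1 and limma-voom at most 1, with 1 to 4 at an unadjusted p under 0.05. Dennd2b was 54.6 ± 5.77 CPM in MFL NK cells, 53.2 ± 17.6 in LM CD49a- NK cells, 6.09 ± 5.28 in LM CD49a+ NK cells and 0.34 ± 0.526 in ILC1. It fell in ILC1 against MFL NK cells (log2 fold change -7.35, SE 1.38, adjusted p = 0.00445 by edgeR), a call that held in all 18 other settings run, at -10.11 without ILC1 replicate 3 to -6.77 without ILC1 replicate 1. Dennd5b, the closest relative of Dennd5a by name, was at 4.45 ± 7.71 CPM in LM CD49a- NK cells and under 1 CPM elsewhere. Of 6 Rab genes linked to DENND5A, 4 were tested and 0 were called by edgeR, DESeq2 or limma-voom in any lymphocyte comparison, with 0 at an unadjusted p under 0.05. Rab6a was 80.2 ± 10.2 CPM in LM CD49a+ NK cells, beside 84.7 ± 15.5 CPM in the MFL NK libraries.

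Of 17 other adhesion molecules of the immunoglobulin family, 9 were tested. In LM CD49a+ against MFL NK cells edgeR called 2 as higher and 0 as lower, with 4 at an unadjusted p under 0.05 and 3 called by each of DESeq2 and limma-voom. The 2 that rose were Thy1 at 281 ± 48.8 against 72.5 ± 10.7 CPM (log2 fold change 1.95, SE 0.35, adjusted p = 0.0184 by edgeR), and Emb, or embigin, at 542 ± 229 against 76.9 ± 37.6 CPM (2.82, SE 0.55, adjusted p = 0.0262 by edgeR). The call on Thy1 was lost without MFL NK replicate 1 or 3 and that on Emb without replicate 1, at adjusted p of up to 0.127 and 0.162 by edgeR. In the other lymphocyte comparisons edgeR called 0, with 2 or 3 at an unadjusted p under 0.05, at most 1 by DESeq2 and up to 6 by limma-voom, in ILC1. Alcam, an activated leukocyte cell adhesion molecule, was 20.1 ± 15.4 CPM in MFL NK cells, 18.9 ± 17.3 in LM CD49a- NK cells, 2.24 ± 3.67 in LM CD49a+ NK cells and 0.801 ± 1.15 in ILC1. It lay in the same order of means as Mcam, and edgeR did not call it, whereas DESeq2 and limma-voom called it lower in ILC1 than in MFL NK cells.

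Of 16 NK maturation genes, all tested, edgeR called 13 lower and 0 higher in ILC1, where 3.06% of all genes were called. It called 3 lower in LM CD49a+ against MFL NK cells and 2 lower against LM CD49a- NK cells. Of all genes, 0.647% and 0.14% were called there. In these 3 comparisons DESeq2 called 14, 6 and 4, limma-voom 16, 7 and 0, and 15, 10 and 7 had an unadjusted p under 0.05. The median log2 fold changes were -3.63, -1.04 and -0.74, beside 0.01, -0.04 and 0.01 over all genes. Gzmb, also on this list, had a higher mean in ILC1 than in MFL NK cells, as given above, and Eomes had similar means in LM CD49a+ and MFL NK cells, at 686 ± 202 and 667 ± 91.1 CPM. Zeb2, a transcription factor of terminal NK maturation, was 672 ± 64.5 CPM in MFL NK cells, 435 ± 21.7 in LM CD49a- NK cells, 132 ± 10.4 in LM CD49a+ NK cells and 25.7 ± 12.9 in ILC1. Its log2 fold changes were -4.70 in ILC1 (SE 0.34, adjusted p = 1.93e-07 by edgeR) and -1.72 in LM CD49a+ against LM CD49a- NK cells (SE 0.30, adjusted p = 0.0402 by edgeR). Itgam (CD11b) was 934 ± 203 CPM in MFL NK cells, 832 ± 81.9 in LM CD49a- NK cells, 253 ± 101 in LM CD49a+ NK cells and 39.5 ± 8.5 in ILC1. The call between the LM populations was lost without LM CD49a+ replicate 1 for both genes, without replicate 2 for Zeb2, under limma-voom for both and in the fit of only the LM groups for Itgam, at adjusted p of at most 0.168 for Zeb2 and 0.431 for Itgam. S1pr5, the receptor that lets NK cells leave tissues, fell from 249.6 ± 37.7 CPM in MFL NK cells to 2.73 ± 2.26 CPM in ILC1 (adjusted p = 0.000278 by edgeR). In LM CD49a- against MFL NK cells edgeR called 0 of the 16, with 1 at an unadjusted p under 0.05 and 0 by DESeq2 or limma-voom.

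Over the 12 libraries, on log2 CPM, Pearson's r was 0.978 between Cma1 and Cmah, 0.934 between Cmah and Wdr95, 0.928 between Cma1 and Wdr95, and 0.779 between Cma1 and Mcam. Mcam had r = 0.717 with Cmah, 0.519 with Wdr95 and 0.507 with Dennd5a, so that Cma1 and Cmah were each closer to Wdr95 than to Mcam. Cpne7 and Dennd5a had r = 0.745, while Cpne7 had r = -0.514 with Cma1 and -0.741 with Wdr95. These values describe 12 libraries in 4 populations and are set largely by the distance between populations. The same libraries served to choose the genes.

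Among 9569 other genes with at least 5 CPM in MFL NK cells, those most like Cma1 were Pogk (r = 0.99), the Ly49 receptor gene Klra8 (0.987) and the integrin gene Itga4 (0.987). Itga4 was 2095, 1685, 769.9 and 229.7 CPM from MFL NK cells to ILC1. Cmah was most like Cma1 itself (0.978), Rasa3 (0.975) and Rap1gap2 (0.975), the latter pair being regulators of small GTPases. Mcam was most like the inhibitory Fc receptor gene Fcgr2b (0.95), Oxr1 (0.938) and Kcnab2 (0.931). Fcgr2b was 68, 39.5, 5.3 and 0.759 CPM in the same order.

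Wdr95 was most like the transcription factor gene Lef1 (0.982), Atp1b3 (0.97) and the interleukin-18 receptor gene Il18r1 (0.968), each level across the NK populations and lower in ILC1. Lef1 was 119, 140.2, 113 and 21.1 CPM. Cpne7 was most like Dnajb9 (0.917), Pde7a (0.909) and Fam120b (0.906), and Dennd5a like Wdr5b (0.893), Afdn (0.847) and Tmem198 (0.844). Pde7a, a cyclic AMP phosphodiesterase, was 123, 153, 91.3 and 303 CPM, again highest in ILC1. Ranking by Spearman's rho kept 2 of the 3 genes for Mcam and 1 for Dennd5a and none for the others, so the order of these lists is loose.

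Macrophages of the metastases did not enter the choice, and 3 of the members, Dennd5a, Mcam and Cmah, were in their table of 13759 genes. F4/80high MAMs had 958 ± 187 CPM of Adgre1 (F4/80) and F4/80low MAMs 146 ± 19. All 3 members were called between the subsets by edgeR, in a comparison where 54.9% of all genes were called, so nothing particular to these 3 genes can be read from the calls. The library kit differed from that of the lymphocytes, so that levels are not set against each other.

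Cmah was 1.71, 1.02 and 1.17 CPM in F4/80low MAMs and 10.4, 7.76 and 17.9 CPM in F4/80high MAMs. All F4/80high libraries lay above all F4/80low libraries. The means were 1.3 ± 0.36 and 12 ± 5.27 CPM, with a log2 fold change of 3.20 (SE 0.36, adjusted p = 0.000187 by edgeR). The 5 B cell markers summed to 6.36 to 19.7 CPM in F4/80low and 18.6 to 36.9 CPM in F4/80high MAMs, with none at 0, so the ranges overlapped. Of the 5, edgeR called Cd79b alone, where 54.9% of all genes were called. It was 5.76 ± 1.64 CPM in F4/80low and 19.3 ± 3.46 CPM in F4/80high MAMs. The part of B cell markers in the Cmah difference was not tested.

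Mcam was rare in MAMs, at 4 to 14 counts in F4/80low and 17 to 40 counts in F4/80high libraries. It was 0.46, 0.307 and 0.173 CPM in the former and 0.765, 1.24 and 1.3 CPM in the latter, without overlap. It rose by a log2 fold change of 1.78 (SE 0.44, adjusted p = 0.0102 by edgeR). The 6 endothelial markers in this table summed to 41.1 to 45 CPM in F4/80low and 19.5 to 25.6 CPM in F4/80high MAMs. Of the 6, Pecam1, Kdr and Clec4g fell, Pecam1 from 20.5 ± 1.09 to 6.31 ± 1.71 CPM. Calls were common between these subsets, at 54.9% of all genes. Lyve1 rose from 0.437 ± 0.0827 to 3.65 ± 2.3 CPM (log2 fold change 3.05, SE 0.50, adjusted p = 0.00138 by edgeR). Cdh5 rose from 3.25 ± 0.988 to 5.13 ± 0.753 CPM (0.65, SE 0.25, adjusted p = 0.0652 by edgeR), a call lost in 4 of 11 other settings. Their part in the Mcam values was not tested.

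Dennd5a was 257, 260.2 and 246 CPM in F4/80low MAMs and 197, 164 and 229 CPM in F4/80high MAMs, again without overlap. The mean went from 255 ± 7.21 to 197 ± 32.5 CPM, a log2 fold change of -0.37 (SE 0.12, adjusted p = 0.034 by edgeR). It was thus abundant in both subsets, with a difference that was small beside that of Cmah.

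**Figure D4:**
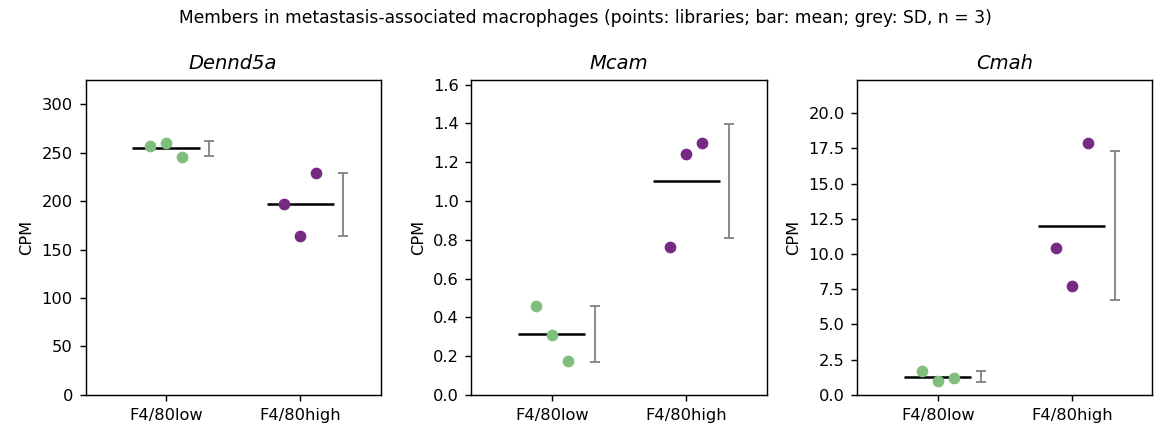
CPM (vertical axis from 0) of Dennd5a, Mcam and Cmah in F4/80low and F4/80high metastasis-associated macrophages, with a point for each library, a black bar for the mean and a grey bar for the SD (n = 3). Dennd5a is lower and Mcam and Cmah are higher in the F4/80high libraries, with no overlap between the subsets.

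The pathway lists moved in both directions in the macrophages. Since edgeR called 54.9% of all genes between the subsets, the counts of calls below show nothing particular to these lists. Of the other sialic acid synthesis and transfer genes, 19 were tested, of which 5 rose and 10 fell in F4/80high MAMs. St8sia1 fell from 24.5 ± 6.56 to 0.707 ± 0.284 CPM (log2 fold change -5.15, adjusted p = 9.41e-06 by edgeR), and St3gal6 rose from 2.55 ± 0.303 to 13.9 ± 5.87 CPM (2.45, adjusted p = 0.000282 by edgeR). Of the 10 genes on the receptor list 5 rose and 5 fell, the selectin ligand Selplg being among those that fell. Siglec1, the sialoadhesin of tissue macrophages, was 777 ± 240.1 against 161 ± 40.4 CPM. Of 20 other DENN-domain genes 9 rose and 8 fell, of 4 copines 1 fell, of 6 Rab genes 2 rose and 2 fell, and of 15 adhesion genes 3 rose and 8 fell.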

How the data were processed

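Bulk RNA-seq libraries of 12 sorted lymphocyte and 6 sorted macrophage samples were analyzed. For the lymphocytes, the authors trimmed reads with Trim Galore, quantified them with Salmon 1.5.0 against GENCODE transcripts of GRCm39 and summed them to genes; for the macrophages the labels name Salmon 1.10.0. The deposited values are estimated counts, held as whole numbers without normalization. Of 54309 lymphocyte IDs, 53700 were named from the GENCODE annotation vM39, as were 13726 of 13759 macrophage IDs. No column was left unmapped. The macrophage table lists no genes with very low totals.

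Counts were scaled by TMM, filtered with filterByExpr and compared with edgeR 4.0.16 (quasi-likelihood test, R 4.3.3), in 1 fit of the 12 lymphocyte libraries and 1 of the macrophages. P-values were Benjamini-Hochberg adjusted over all genes tested, and an adjusted p under 0.1 was called. The SE is the size of the log2 fold change divided by the square root of F. An exact permutation test (two-sided) of 3 libraries against 3 cannot go below p = 0.1. DESeq2 1.42.0, limma 3.58.1 (voom with quality weights), DESeq2 size factors, no filter, a replicate block, fits of only the 2 groups compared and leaving out each library were the alternatives. The scripts were tested on simulated counts. A fold against a group with 3 counts or fewer in every library was computed on means, against 3 counts per library. It covers counting error only and not the spread between libraries. Lists of sialic acid, copine, DENN-domain, Rab, chymase cluster, adhesion, NK maturation and cell type marker genes were written by hand. The members and lists were chosen with earlier results of these data known. The text names the members, the 3 genes most like each (Pearson's r, log2 CPM, prior count 2), at most 4 called genes per list and comparison, relatives of the members, and sort and cell type markers.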

Additional observations from a re-analysis of the deposited data

How the results depend on the processing

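The calls on members in LM CD49a- against MFL NK cells stayed at 0 of 6 and those in macrophages at 3 of 3 under every alternative run. Directions that turned were all of small differences. For Cpne7 in LM CD49a- against MFL NK cells the log2 fold change became -0.06 without MFL NK replicate 2 and -0.20 without LM CD49a- replicate 3 (range -0.20 to 0.29 with 1 library left out), and for Wdr95 -0.18 without LM CD49a- replicate 1 (range -0.18 to 0.79). For Wdr95 in LM CD49a+ against LM CD49a- NK cells it became 0.13 by limma-voom and 0.10 without LM CD49a- replicate 1 (range -0.80 to 0.10). With MFL NK cells as the reference, the same gene had 0.21 by limma-voom, 0.02 with the replicate block, 0.36 without MFL NK replicate 1 and 0.07 without LM CD49a+ replicate 3 (range -0.34 to 0.36). The counts of genes called depended more on the method, and the cause was not tested. In LM CD49a- against MFL NK cells 10 genes were called (9 higher, 1 lower), 161 by DESeq2 (100 higher, 61 lower), 104 by limma-voom, 158 with no filter, 3 in a fit of only the 2 groups, and 1 to 110 with 1 library left out, the extremes being without MFL NK replicate 1 or 3 and without LM CD49a- replicate 3 (20 higher, 90 lower). In LM CD49a+ against LM CD49a- NK cells 19 were called, 543 by DESeq2, 0 by limma-voom (746 at an unadjusted p under 0.05), 200 with no filter, 3 with only the 2 groups, and 5 to 267 with 1 library left out, without LM CD49a+ replicate 1 and without LM CD49a- replicate 3. In LM CD49a+ against MFL NK cells 88 were called, 365 by DESeq2, 307 by limma-voom, 371 with no filter, and 26 to 168 with 1 library left out, without MFL NK replicate 1 or 3 and without LM CD49a- replicate 2. In ILC1 against MFL NK cells 416 were called, 667 by DESeq2, 2645 by limma-voom, 1228 with only the 2 groups, and 268 to 562 with 1 library left out, without MFL NK replicate 1 and without LM CD49a- replicate 2. In macrophages 7555 were called, and 6550 to 7234 with 1 library left out. Between libraries that share a replicate number, deviations from the group means correlated at -0.0452 to 0.0981 in lymphocytes and -0.0145 to 0.172 in macrophages. The numbers were therefore not taken to pair the libraries. With 3 libraries per group, these correlations cannot decide whether sortings were shared. With the replicate block the counts were 15, 24, 101, 445 and 7512 in the order above. Levels under 3 counts per library, and differences within the spread of 3 libraries, could not be resolved at this depth.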
